A study of Mus musculus with 8 samples.

Results

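PU.1 peaks called in the PuER line only, on DNA where CEBPA was called in both lines, are described here. They were chosen by the peak calls themselves: a PU.1 peak of the PuER line belonged when it overlapped, by at least 1 bp, no PU.1 peak of the empty-vector (EV) line but did overlap a CEBPA peak in both lines. This gave 2027 peaks, called joining peaks below, of the 12714 PuER PU.1 peaks that had no EV counterpart (15.9%), and 15683 PU.1 peaks were called there in all. The ChIP-Seq data came from X18.1.1, a radiation-induced mouse AML cell line that has lost one Pu.1 allele and carries a missense change of the DNA-binding domain and an in-frame PEST-domain deletion in the remaining one. One clonal line held an empty retroviral vector and the other held PuER, wild-type PU.1 fused to an oestrogen receptor domain that 4-hydroxytamoxifen (OHT) activates, and both were kept in 100 nM OHT for 2 h. Each line was 1 clone with 1 library for PU.1 and 1 for CEBPA, so clone, vector and wild-type PU.1 cannot be told apart, and there was no replicate check. Terms such as new, joining, retained, gained and lost compare calls between the lines, and no order in time was measured. The PU.1 antibody recognises the mutant protein as well as the fusion, and an EV peak is therefore a peak of mutant PU.1.

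PU.1 is an ETS-family factor that binds purine-rich DNA around a GGAA core and drives monocyte and macrophage genes. CEBPA, a basic leucine zipper factor of granulocyte and monocyte progenitors, binds as a dimer to a palindrome with TTGC and GCAA arms. In myeloid cells the pair occupies many of the same enhancers and promoters, with each factor on its own short sequence.

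The windows that follow are from the GRCm38 (mm10) reference, forward strand, and show how the recognition words lay in joining peaks. Capitals mark the ETS word GGAAGT (or ACTTCC, its other strand) and the CEBP word TTGCNNAA, on either strand, and a lower-case ga before GGAAGT, or tc after ACTTCC, extends the ETS word to the PU.1-type word GAGGAAGT. The first set holds the 80 central bases of 7 joining peaks with both words: those of the named genes Trps1, Adgrl3, Chd7 and Zeb2, and the 4 with the smallest gap between a PU.1-type and a CEBP word (Il1a, Adgrl3, the chromosome 13 site and Ltbp1). They lay in introns of Trps1 (chr15:50750438-50750517), Adgrl3 (chr5:81058276-81058355), Chd7 (chr4:8756074-8756153) and Ltbp1 (chr17:75353513-75353592), and between genes near Zeb2 (chr2:44953098-44953177), near Il1a (chr2:129314049-129314128) and at a site given no gene (chr13:93996532-93996611). The site near Zeb2 was also given to Gtdc1. Its nearest gene start was 25481 bp away and the nearest Zeb2 start 69777 bp away. In the Chd7 window the CEBP word shared a base with an ETS word.
Trps1: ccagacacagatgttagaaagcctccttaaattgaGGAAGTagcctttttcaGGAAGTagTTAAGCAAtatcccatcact
Adgrl3: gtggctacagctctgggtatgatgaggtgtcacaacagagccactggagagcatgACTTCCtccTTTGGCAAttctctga
Chd7: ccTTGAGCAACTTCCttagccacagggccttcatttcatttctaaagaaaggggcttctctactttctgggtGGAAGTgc
Ltbp1: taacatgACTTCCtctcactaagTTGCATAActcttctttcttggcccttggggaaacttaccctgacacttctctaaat
Zeb2: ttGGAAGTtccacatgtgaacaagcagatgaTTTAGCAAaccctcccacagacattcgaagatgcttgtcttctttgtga
Il1a: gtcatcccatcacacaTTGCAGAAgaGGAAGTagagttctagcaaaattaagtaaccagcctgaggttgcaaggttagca
chromosome 13 site: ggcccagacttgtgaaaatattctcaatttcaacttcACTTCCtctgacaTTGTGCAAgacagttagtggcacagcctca

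In the Il1a window the PU.1-type word began directly after the CEBP word, with 0 bp between them. The gap was 1 bp at Adgrl3, 5 bp at the chromosome 13 site and 8 bp at Ltbp1. Between the ETS and CEBP words it was 2 bp at Trps1, 23 bp at Zeb2 and 62 bp at Chd7. Few peaks held both words: 90 joining peaks held both words without overlap in the central 80 bp, and 17 held a PU.1-type and a CEBP word after peaks in UTRs and on 1 chromosome whose sequence is not shown were set aside.

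A second set comes from genes of myeloid function and was chosen after the values were seen, as all joining peaks of the listed genes with a PU.1-type word in the central 80 bp that are not shown above. They lay in an intron of Cybb (chrX:9462881-9462960), in the promoter and an intron of Cyba (chr8:122432518-122432597), 20735 bp upstream of Alox15 (chr11:70372726-70372805) and 16287 bp upstream of Plcg2 (chr8:117481964-117482043). The Alox15 peak was also given to Pelp1 and the Plcg2 peak to Cmip. Cybb and Cyba encode both membrane subunits of the phagocyte NADPH oxidase, Alox15 a lipoxygenase of macrophages and eosinophils, and Plcg2 a phospholipase downstream of Fc and B-cell receptors. None of these 4 windows held a CEBP word, but most CEBPA centres lay outside them. The PuER CEBPA centre was 86 bp from the PU.1 centre at Cybb, 213 bp at Cyba, 142 bp at Alox15 and 36 bp at Plcg2. In the whole 400-bp PU.1 peaks there were 2 CEBP words at Cybb, 1 at Alox15, and 0 at Cyba and at Plcg2.
Cybb: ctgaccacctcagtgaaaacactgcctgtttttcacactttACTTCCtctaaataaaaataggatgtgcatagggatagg
Cyba: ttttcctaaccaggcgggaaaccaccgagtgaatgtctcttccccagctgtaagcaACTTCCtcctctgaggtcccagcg
Alox15: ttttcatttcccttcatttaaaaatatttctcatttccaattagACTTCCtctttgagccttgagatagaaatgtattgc
Plcg2: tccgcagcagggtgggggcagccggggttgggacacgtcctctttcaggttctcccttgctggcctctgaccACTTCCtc

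For peaks of the same choice whose windows touched an untranslated region, 30 bases are shown. These were at the promoters of Csf2rb (chr15:78325961-78325990), Ikzf1 (chr11:11686204-11686233) and Itgal (chr7:127296237-127296266) and inside Itgb2 (chr10:77548807-77548836). Csf2rb encodes the common beta chain of the GM-CSF, IL-3 and IL-5 receptors, Ikzf1 the transcription factor Ikaros, and Itgal and Itgb2 the alpha and beta chains of the leukocyte integrin LFA-1. In the bases shown, the Csf2rb promoter paired the PU.1-type word with a CEBP word.
Csf2rb: gcTTGCGAAAgggcactggcaACTTCCtca
Ikzf1: gtgagcaacttgaGGAAGTcattgtgaaag
Itgal: tgcttatACTTCCtctctgaacagagaggt
Itgb2: tcagatttcccaACTTCCtcaaactcaggg

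The deposited lists held 400-bp intervals alone, so that neither binding strength nor sequencing depth is known. Intervals behind shares are exact Clopper-Pearson intervals and those behind differences of shares are Newcombe intervals, all at 95% and for counting error only. Joining peaks were compared with 3 other sets of PuER PU.1 peaks: 1578 that were also called in EV and lay on retained CEBPA (constitutive co-bound peaks), 925 new peaks that overlapped a CEBPA peak of PuER but none of EV (CEBPA-gained peaks), and 9482 new peaks with no CEBPA call in either line (CEBPA-free peaks). A further 280 new PU.1 peaks overlapped a CEBPA peak of EV but none of PuER.

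Most EV CEBPA sites where a new PU.1 peak was called also had a CEBPA call in PuER. Of the 2307 new PU.1 peaks that overlapped an EV CEBPA peak, 87.9% (86.5 to 89.2) overlapped a CEBPA peak in PuER too. The share was 89.3% (87.7 to 90.7) among the 1768 constitutive PU.1 peaks at an EV CEBPA peak, and the difference of -1.39 percentage points had an interval of -3.34 to 0.598. The first share counts the joining peaks themselves, and is a description. Counted by CEBPA peak, 69.3% (68.7 to 69.9) of all 26119 EV CEBPA peaks overlapped one of PuER, and 65.0% (64.4 to 65.7) of the 20771 with no PU.1 peak in either line. Joining peaks paired almost one to one with CEBPA peaks, with 2026 different CEBPA peaks nearest to them in each line. In 4 joining peaks the nearest EV and PuER CEBPA peaks did not overlap each other.

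At the edges of the rule, the smallest overlaps of joining peaks with CEBPA were 1, 1 and 2 bp, and the joining peaks nearest to an EV PU.1 peak were separated from it by 32, 32 and 33 bp. Just outside, new PU.1 peaks lay 0 and 2 bp from an EV CEBPA peak, and excluded peaks overlapped an EV PU.1 peak by 3 and 9 bp. There were 63 joining peaks with under 50 bp of overlap in either line, and 44 whose nearest EV PU.1 peak was centred within 1000 bp.

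PU.1 centred close to CEBPA but less tightly than at constitutive co-bound peaks. The median distance between the PU.1 and PuER CEBPA centres was 59 bp (interval 56 to 63) at joining peaks and 45 bp (42 to 48) at constitutive co-bound peaks. Centres lay within 50 bp of each other in 43.9% of joining peaks and 53.7% of constitutive co-bound peaks, a difference of -9.88 points (-13.1 to -6.60). At the far end, 12.9% of joining peaks had their CEBPA centre over 200 bp away, against 9.25%. Measured to the EV CEBPA centre, where no PU.1 peak had been called, the median was 64 bp (59 to 67).

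**Figure D1:**
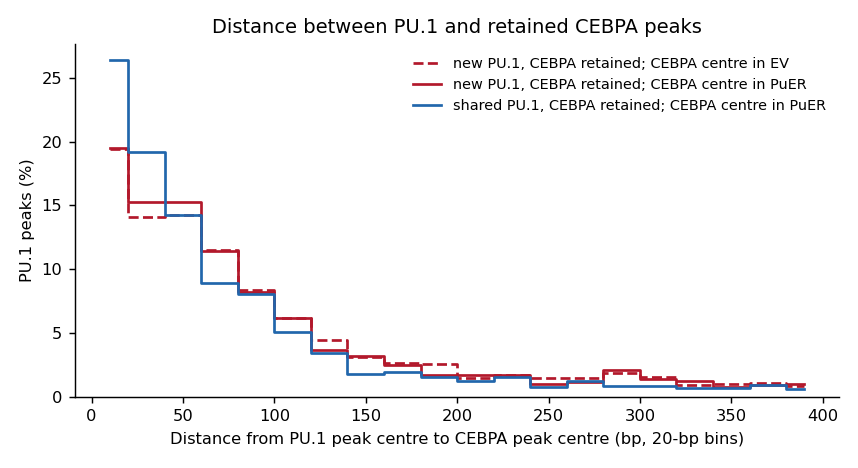
Distance in bp, in bins of 20 bp, from the centre of each PU.1 peak to the centre of its CEBPA peak, as a percentage of the peaks of each set; red lines are joining peaks (new PU.1, CEBPA retained) with the EV (dashed) or PuER (solid) CEBPA centre, and the blue line is constitutive co-bound peaks (shared PU.1, CEBPA retained). Both red lines nearly coincide, with medians of 64 and 59 bp, and the blue line is higher at the shortest distances, with a median of 45 bp.

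CEBPA centres were close together in both lines. The EV and PuER CEBPA centres lay a median of 11 bp (11 to 13) apart at joining peaks and 11 bp (10 to 12) at constitutive co-bound peaks. The CEBPA centre was nearer to PU.1 in the PuER line at 1012 joining peaks, farther at 928 and equally far at 87. Among those that differed, 52.2% (49.9 to 54.4) were nearer, against 51.5% (48.9 to 54.0) of constitutive co-bound peaks, and the difference of 0.71 points (-2.64 to 4.07) included 0. Restricted to distances that differed by 20 bp or more, 55.6% (51.8 to 59.3) of joining peaks and 55.4% (50.8 to 59.9) of constitutive co-bound peaks were nearer. At mean distances of 50 to 100 bp, 54.9% (50.6 to 59.2) of joining and 50.6% (45.3 to 55.8) of constitutive co-bound peaks were nearer. At 100 to 200 bp the shares were 59.05% (53.59 to 64.35) and 56.05% (49.27 to 62.67). Joining peaks were at 48.7% under 50 bp and 48.4% at 200 bp or more. In all, joining and constitutive co-bound peaks did not differ detectably. The paper reports a mean rise in PU.1 coverage over all its regions, and also a group of regions with no change in PU.1. PU.1 signal at the constitutive co-bound peaks is not known here, so the comparison cannot show whether both sets shifted.

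Each factor's word lay mostly near its own peak centre. In joining peaks the density of ETS words was 13.8 per 100 peaks in the 20 bp at the PU.1 centre and 1.18 in the outermost 20 bp, whereas CEBP words gave 4.14 and 1.11. Around the PuER CEBPA centre the order was turned, with 16.6 CEBP words per 100 peaks in the middle 20 bp and 4.74 ETS words. Where the PU.1 peak held a single ETS word, that word was nearer to the PU.1 centre in 629 of 839 joining peaks (interval 71.9% to 77.9%), at a median of 33 bp against 82 bp from the CEBPA centre. Single CEBP words were nearer to the CEBPA centre in 503 of 738, at a median of 26 bp against 66 bp. Because the PU.1 peak was the stretch searched, its own centre was favoured for both words, and the CEBP words lay nearer to CEBPA all the same.

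**Figure D2:**
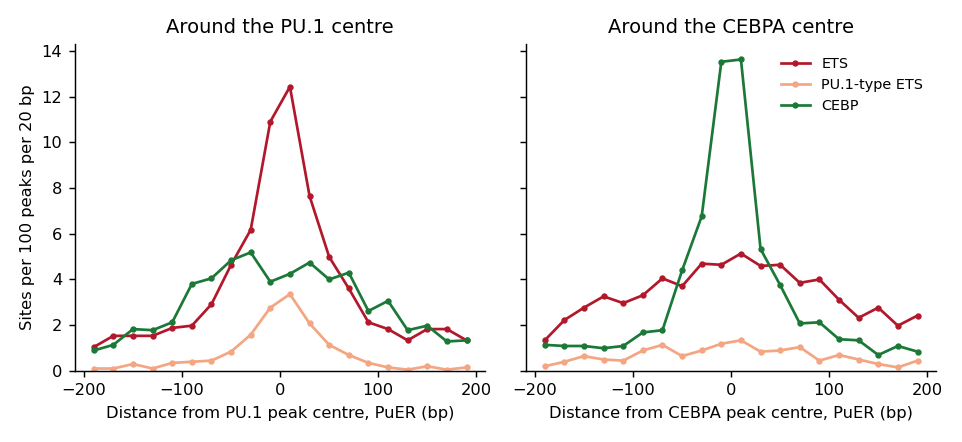
Number of motif words per 100 joining peaks in 20-bp bins, by distance in bp from the PU.1 peak centre (left) and from the CEBPA peak centre (right), both in PuER; red is the ETS word, light red the PU.1-type word and green the CEBP word. ETS words peak at the PU.1 centre and CEBP words at the CEBPA centre, with 12.4 and 13.6 words per 100 peaks in the highest bins.

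By the word GGAAGT, joining peaks held fewer ETS words than the 3 other sets, although far more than the DNA around them. Within the central 80 bp, the ETS word occurred in 656 of 2027 joining peaks (32.4%, 30.3 to 34.5), and in 4.39% of 4054 windows of the same length centred 2000 bp to either side. It occurred in 41.5% of constitutive co-bound peaks, 39.8% of CEBPA-gained peaks and 45.6% of CEBPA-free peaks, and joining peaks differed from them by -9.15 (-12.3 to -5.97), -7.42 (-11.2 to -3.69) and -13.3 (-15.5 to -10.9) points. The PU.1-type word was found in 9.28% of joining peaks (flanks 0.469%), compared with 12.3%, 12.5% and 17.3% of the other sets in the same order, and each of these differences also excluded 0. Against CEBPA-gained peaks the interval included 0 in wider windows, for the PU.1-type word in 200 bp (-2.31, -5.16 to 0.386) and the whole peak (-2.37, -5.32 to 0.419) and for the ETS word in the whole peak (-2.47, -6.28 to 1.38).

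The comparison with constitutive co-bound peaks changed direction with the word chosen. The 8-base sequences that most distinguished joining peaks from their flanks were AAGAGGAA and AGAGGAAG, each in 11.4%, and ACTTCCTC, the PU.1-type word on its other strand, in 9.28%. At constitutive co-bound peaks AGGAAGTG led, in 18.9% against 7.99% of joining peaks, followed by CCACTTCC in 11.9% and ACTTCCTC in 12.3%. The leading words of joining peaks were not particular to them. AGAGGAAG was in 11.2% and AAGAGGAA in 9.1% of constitutive co-bound peaks. AAGAGGAA was in 17.5% of CEBPA-gained and 17.7% of CEBPA-free peaks. Both leading words of joining peaks contain GAGGAA, which was therefore counted as well, after the values were seen. Because it was picked from these same peaks, its shares and intervals are descriptions. GAGGAA occurred in 36.5% (34.4 to 38.7) of joining peaks, 31.6% of constitutive co-bound peaks and 7.03% of flanks, and joining peaks were now higher, by 4.89 points (1.76 to 7.97). Peaks with GAGGAA and no GGAAGT made up 23.1% of joining and 14.3% of constitutive co-bound peaks, a difference of 8.82 points (6.27 to 11.3). The other new sets had similar shares. They were 24.8% of CEBPA-gained peaks (difference -1.62, -5.01 to 1.65) and 21.8% of CEBPA-free peaks (difference 1.32, -0.656 to 3.37). Peaks with GGAAGT and no GAGGAA numbered 385 of 2027 joining and 382 of 1578 constitutive co-bound peaks (difference -5.21, -7.94 to -2.51). One or the other was present in 55.5% and 55.8% (difference -0.33, -3.59 to 2.94), against 64.5% of CEBPA-gained and 67.4% of CEBPA-free peaks. By either word joining peaks remained below both of the other new sets.

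The flank of the GGAA core was compared as well. The ETS1-type word CNGGAAGT, typical of ETS1, was in 5.62% of joining peaks and 9.38% of constitutive co-bound peaks (difference -3.75, -5.55 to -2.03). The ratio of PU.1-type to ETS1-type peaks was 1.65 among joining peaks, 1.31 among constitutive co-bound peaks, 2.64 among CEBPA-gained peaks and 2.53 among CEBPA-free peaks. No interval was computed for these ratios, so they are descriptions. The composite ETS-IRF word GGAANNGAA, on which PU.1 can bind with IRF4 or IRF8, was present in 12.4% of joining peaks. That was above the 9.76% of constitutive co-bound peaks by 2.62 points (0.549 to 4.66), and below the 15.9% of CEBPA-gained and 19.6% of CEBPA-free peaks.

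CEBP words were common in joining peaks, as in other PU.1 peaks with CEBPA. The word was in 316 joining peaks (15.6%, 14.0 to 17.2; flanks 3.28%), 18.3% of constitutive co-bound peaks, 12.8% of CEBPA-gained peaks and 3.72% of CEBPA-free peaks, where it was close to the flanks. Both the ETS and the CEBP word were found in 4.79% of joining peaks and neither in 56.8%. With whole peaks searched, 47.3% of joining peaks held a CEBP word. How often it fell near the PU.1 centre differed with the position of CEBPA: it was in the PU.1 window of 25.5% of joining peaks whose CEBPA centre was under 50 bp away, 11.2% at 50 to 99 bp, 4.57% from 100 to under 200 bp and 6.82% (4.09 to 10.6) of the 264 at 200 bp or more. The ETS word gave 32.1%, 29.8%, 32.6% and 38.3% (32.4 to 44.4) across the same distances.

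Words for other factors were also counted. RUNX words (TGNGGT) were in 425 joining peaks (19.2% to 22.8%) and 15.5% of flanks, below the 26.7% of constitutive co-bound peaks (difference -5.78, -8.60 to -2.97) and above the 14.1% of CEBPA-gained peaks by 6.91 points (3.97 to 9.69). MYB words (CAACNG) were in 13.8% of joining peaks, 9.87% of flanks and 9.30% of CEBPA-free peaks. The AP-1 word TGANTCA was in 4.24% and the E-box word CAGCTG in 4.69%. GATA words (AGATAA) were in 2.57% of joining peaks, fewer than the 4.69% of their flanks. The CEBP-ATF word TGATGCAA was in 1.33%.

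**Figure D3:**
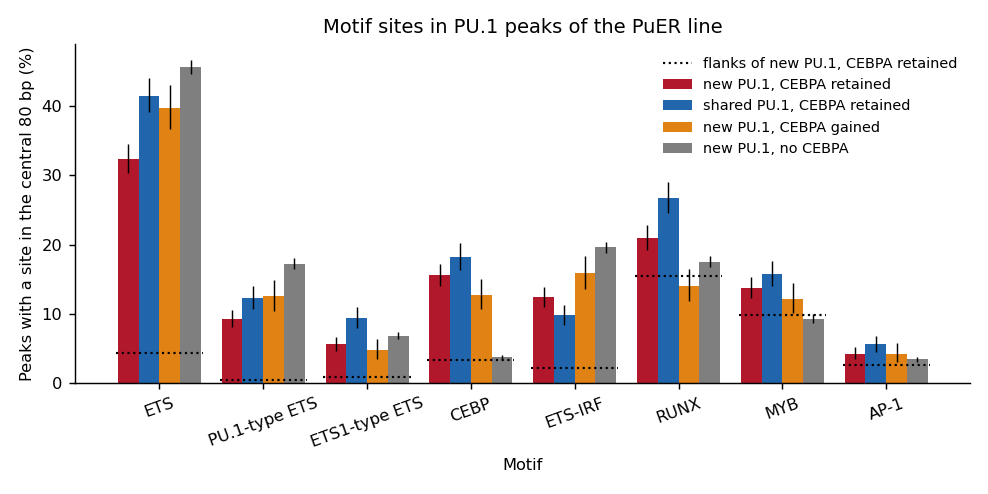
Percentage of PuER PU.1 peaks with at least 1 motif word in the central 80 bp, for joining peaks (red, new PU.1, CEBPA retained), constitutive co-bound peaks (blue), CEBPA-gained peaks (orange) and CEBPA-free peaks (grey); error bars are exact 95% intervals for counting error and dotted lines are the flanks of joining peaks. Red bars are lowest for the ETS word, at 32.4%, and for CEBP words the red bar, at 15.6%, is well above the grey bar, at 3.72%.

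No fixed arrangement of the words was seen. Over whole peaks, 516 joining peaks (25.5%) held both an ETS and a CEBP word, and in 504 the words did not overlap. The median gap between the nearest pair was 56.5 bp (52 to 62) in joining peaks and 47 bp (41 to 55) in constitutive co-bound peaks. Gaps under 20 bp made up 18.1% of the joining pairs, and the widest gap was 353 bp. Read along the strand of the ETS word, the CEBP word lay upstream of it in 240 pairs and downstream in 264. The words shared a strand in 245 pairs and had opposite strands in 259.

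Seen from the CEBPA side, which retained peaks PU.1 joined went with ETS words rather than with CEBP words. Of 18099 PuER CEBPA peaks that overlapped an EV CEBPA peak, 2040 (11.3%) were overlapped by a new PU.1 peak and by no constitutive one, 1583 by a constitutive PU.1 peak, 974 by a PU.1 peak called in EV only, and 13502 by no PU.1 peak of either line. The count of joined CEBPA peaks exceeds that of joining peaks because a new PU.1 peak can touch the PuER CEBPA peak without touching its EV partner. In the 80 bp around the CEBPA centre the ETS word was in 346 joined peaks (15.4% to 18.7%), 25.3% of those with constitutive PU.1 and 6.80% of those with none (flanks of joined peaks 4.73%). CEBP words ran the other way, with 34.7% of joined peaks and 41.1% of those with no PU.1, a difference of -6.47 points (-8.67 to -4.22). At the EV CEBPA centres of the same peaks the ETS word was in 16.3% of joined peaks and 7.01% of those with none.

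Taking retained CEBPA peaks with a new PU.1 peak or none, 13.1% were joined. Among those with a PU.1-type word anywhere in the 400 bp, 266 of 578 were joined (46.0%), against 11.9% of those without one, a difference of 34.2 points (30.1 to 38.3). With the shorter ETS word the shares were 23.6% and 8.85%, and with the ETS1-type word 18.8% and 12.5%. Joining rose with the number of ETS words, from 8.85% with 0 to 21.1% with 1, 35.5% with 2 and 39.4% with 3 or more. The last group held 99 peaks, and its interval overlapped that of peaks with 2 words. ETS-IRF words gave 24.4% against 11.6%, while RUNX words gave 14.2% against 11.3%. A CEBP word anywhere in the peak went with slightly less joining, 12.3% against 14.1% (difference -1.81, -2.89 to -0.736), and MYB words gave 13.0% and 13.3%, a difference whose interval (-1.29 to 0.838) included 0.

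Promoters were joined less often than other CEBPA peaks. A promoter here is a centre within 1000 bp of a transcript start of a protein-coding gene. New PU.1 peaks joined 8.04% of 2800 retained CEBPA peaks at promoters, 13.5% inside genes and 15.1% between genes. With a PU.1-type word the shares were 35.0%, 45.5% and 50.0%, and without it 7.24%, 12.3% and 13.6%.

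**Figure D4:**
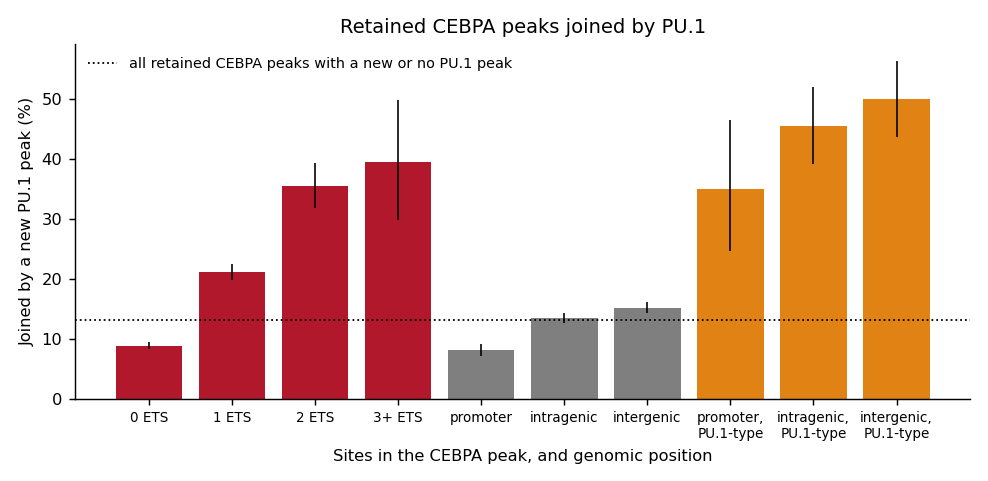
Percentage of retained CEBPA peaks joined by a new PU.1 peak, among those with a new PU.1 peak or none, by number of ETS words in the 400-bp peak (red), by genomic position (grey) and by position among peaks with a PU.1-type word (orange); error bars are exact 95% intervals for counting error and the dotted line is the share over all these peaks, 13.1%. The share climbs from 8.85% with 0 ETS words to 39.4% with 3 or more, and the 3 orange bars lie between 35.0% and 50.0%.

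Joining peaks were mostly away from promoters. Of the 2027, 223 (11.0%) were at promoters, 45.3% inside genes and 43.7% between genes, and the median distance to a start was 14010 bp. The promoter share differed by under 2 points from those of constitutive co-bound, CEBPA-free and CEBPA-gained peaks, with intervals that included 0. More joining than CEBPA-gained peaks lay inside genes, by 4.04 points (0.180 to 7.85), and fewer between genes (difference -5.53, -9.40 to -1.65). ETS words were as frequent at promoters (32.3%) as inside (32.9%) or between genes (31.9%). Median GC content was 45.5%, against 46.4% for constitutive co-bound and 45.0% for CEBPA-free peaks. The centre fell in an annotated repeat in 244 joining peaks (10.7% to 13.5%) and in 17.3% (16.6 to 18.1) of CEBPA-free peaks. Another new PU.1 peak lay within 10 kb of 37.6% of joining peaks and of 31.9% of CEBPA-free peaks, a difference of 5.74 points (3.46 to 8.07). The shares of constitutive co-bound peaks (39.2%, difference -1.63, -4.84 to 1.56) and CEBPA-gained peaks (41.0%, difference -3.38, -7.20 to 0.402) were nearer to that of joining peaks, and both intervals included 0. The share of new PU.1 peaks that were joining ran from 11.6% (8.23 to 15.8) on chromosome X to 18.4% (14.7 to 22.8) on chromosome 18, and these intervals overlapped.

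Peaks were given to the gene whose promoter or, failing that, body held the centre or, between genes, to the nearest gene on either side within 50 kb. In all, 1754 joining peaks were given a gene and 273 were not, and 1688 of 21924 protein-coding genes (7.70%) received at least 1, of which 1380 received a single one. Gene length was not adjusted for. Rad51b, a gene of homologous recombination, had 6 joining peaks, 5 of them in introns, among 10 new PU.1 peaks and 25 retained CEBPA peaks. Hk2, which encodes hexokinase 2 of glycolysis, had 5 joining peaks of 8 new PU.1 peaks, and 4 of them lay upstream of its start, 23109 to 49950 bp away. Trps1, a GATA-type zinc-finger repressor, had 5 of 18 and the lipid transporter gene Abca13 had 5 of 12. Gm20388 also had 5, but its annotated span of several megabases runs over many other genes. Adgrl3, Arhgef38, Arsb, Astn2, Chd7, Dennd2d and Dock10 had 4 each, and at Dennd2d, a DENN-domain gene, all 4 of its new PU.1 peaks were joining peaks. Neither Spi1, which encodes PU.1, nor Cebpa was given a joining peak, although they had 4 and 6 retained CEBPA peaks and 1 and 3 new PU.1 peaks.

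Many genes of phagocyte defence carried joining peaks. The gene lists were drawn up with earlier results of these data known, and their counts are descriptions beside the 7.70% of all genes, and beside the 19.6% found among the 8606 genes that had a retained CEBPA peak. Of the 6 NADPH oxidase genes, all with a retained CEBPA peak, 5 had a joining peak and Ncf1 did not. Cybb had 3, all in introns, and Cyba and Ncf4 had 1 each. The Cyba peak was at the promoter, 347 bp from a start. Of 27 monocyte and macrophage surface receptors 14 had one, and so did 14 of the 24 with a retained CEBPA peak (58.3%). Among them were the lipopolysaccharide co-receptor gene Cd14 with 2 joining peaks of 4 new PU.1 peaks, the adhesion receptor genes Cd44 with 2 of 7 and Itgb2 with 2 of 5, and the chemokine receptor gene Ccr2 with 1 of 6. The receptor genes without a joining peak were Adgre1, Itgax, Cd36, Msr1, Fcgr1, Fcgr3, Fcer1g, Tlr6, Tlr7, Tlr13, Ccr1, Sirpa and Cd86. Granule and secreted host-defence genes gave 6 of 12, and 6 of the 11 with a retained CEBPA peak (54.55%). Among them was S100a8, a calprotectin subunit, with 2 joining peaks, 9188 bp upstream and 17684 bp downstream of its start. Mpo, which encodes myeloperoxidase, had 1 at 3271 bp upstream. Elane, Ctsg, Ltf, Camp, Lcn2 and Ngp were without a joining peak. The 6 genes with a joining peak rested on 5 peaks. S100a9 had none apart from those also given to S100a8, and the neighbouring lysozyme genes Lyz1 and Lyz2 shared a single joining peak.

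Signalling and regulatory genes came next. Among their genes with a retained CEBPA peak, 9 of 16 kinase, phospholipase and adaptor genes had a joining peak (56.25%). Apoptosis and cell-cycle regulators gave 4 of 10 (40%) and growth factor receptors 3 of 8 (37.5%). Transcription factors gave 8 of 28 and leukotriene and prostaglandin genes 2 of 7 (both 28.6%). These shares stand beside the 19.6% of all genes with a retained CEBPA peak. Haematopoietic kinases, phospholipase and adaptors had 9 of 20, with 2 joining peaks at Plcg2 and promoter peaks at the adaptor genes Dok3 and Fyb, 19 and 165 bp upstream of a start. Of 32 haematopoietic transcription factors 8 had one. Ikzf1 had 3, the first at a promoter 6 bp from a start, Zeb2, a repressor used in monocyte and dendritic cell development, had 3, and the ETS factor genes Etv6 and Elf1 had 2 and 1. Growth factor receptors gave 3 of 10, with 1 joining peak each at Csf2rb, Flt3 and Il6ra, of which Csf2rb and Il6ra had theirs at the promoter, 37 and 63 bp upstream of a start. Csf1r, Csf3r and Kit were without one. Apoptosis and cell-cycle regulators gave 4 of 14, with 3 joining peaks at Bcl2, an inhibitor of apoptosis, 2 at Ccnd3 and 1 each at Ccnd2 and Mcl1. Leukotriene and prostaglandin genes gave 2 of 8, Alox15 with 2 joining peaks and Ptgs1 with 1. Of 29 genes of non-haematopoietic tissues none had a joining peak, and 2 of them had a retained CEBPA peak.

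**Figure D5:**
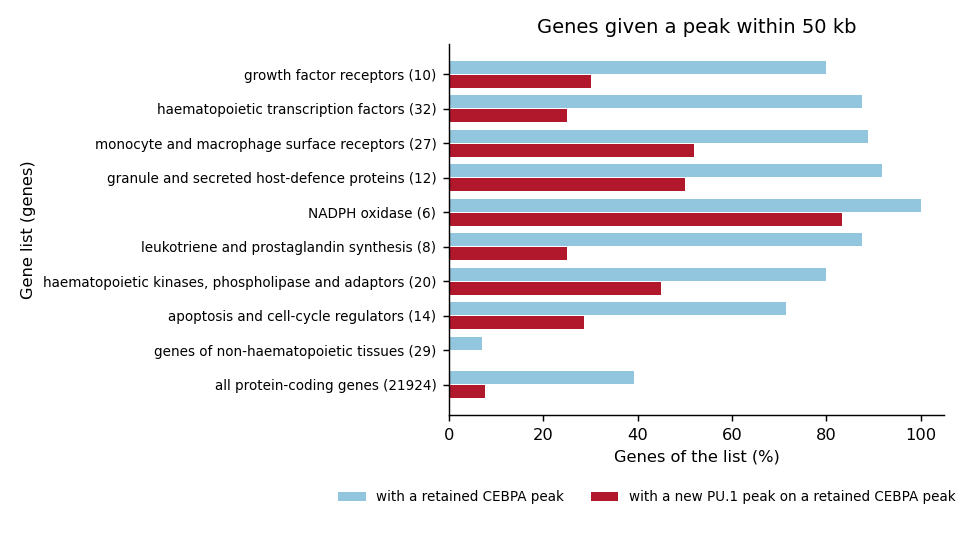
Percentage of the genes of each list given at least 1 retained CEBPA peak (blue) or at least 1 joining peak (red) within 50 kb, with the number of genes measured in brackets. Red bars reach 83.3% for NADPH oxidase genes and 51.9% for monocyte and macrophage receptors, compared with 7.70% of all protein-coding genes, and blue bars are at 71.4% or above for the 8 haematopoietic lists, against 39.3% of all genes.

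The joining peaks of these genes differed in how close PU.1 sat to CEBPA. PU.1 and PuER CEBPA centres were 12 bp apart at the Csf2rb promoter, 15 bp at the Ikzf1 promoter, 13 bp at the Itgb2 peak shown above, 17 bp at the upstream S100a8 peak, 16 bp at the lysozyme peak and 1 bp at Mcl1. They were 213 bp apart at Cyba, 322 bp at Dok3, and 86, 131 and 329 bp at the 3 Cybb peaks. Both kinds occurred within a gene: at Rad51b the distances ran from 25 to 348 bp and at Dock10 from 1 to 281 bp. At the Csf2rb promoter the EV CEBPA centre was 10 bp from PU.1, and at the Cyba promoter 215 bp, so that CEBPA stood in nearly the same place with and without the PU.1 call.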

How the data were processed

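ChIP-Seq peaks for PU.1 and CEBPA were analysed from 4 libraries, and the other 4 of the 8 samples (H3K27Ac and IgG) were not analysed here. Per the labels, the authors aligned reads to mm10 (GRCm38) with Bowtie2 2.0.6 and called peaks with MACS2 2.0.10. The deposited files hold other than read-based values: chromosome, start and end of each peak, all 400 bp wide, with no score or signal. The calling threshold and the step that set the width are not given in the sources used here, and the depth is unknown, so a peak missing from a list may be one under its threshold.

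Peaks sharing at least 1 bp were overlapping. Motif words were exact matches on both strands in the central 80 bp, read from GRCm38, with windows 2000 bp away as background; the PU.1-type and ETS1-type words contain the ETS word. Genes and transcript starts came from GENCODE, and peaks between genes went to the nearest gene on either side within 50 kb. Genes named were the 12 with most joining peaks (ties by symbol), up to 4 of each list with most, Spi1 and Cebpa, of which 1 is not reported here; sequences shown are, of named genes, the peak with the smallest gap between ETS and CEBP words, the 4 peaks with the smallest gap between PU.1-type and CEBP words, and those at list genes with a PU.1-type word. The members, lists and motifs were chosen with earlier results of these data known. With 1 library per condition no p-value was computed. Overlap classes, planted words and gene placement were tested on simulated data and recovered at 100%. Alternatives were other overlap rules, windows, words, promoters and gene distances. Intervals used scipy 1.17.1, sequences pysam 0.24.0, tables pandas 2.3.3 with numpy 2.4.6, and plots matplotlib 3.10.9, under Python 3.11.15.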

Additional observations from a re-analysis of the deposited data

How the results depend on the processing

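Of 106 alternative values, 80 counted as unchanged, 18 moved, 5 lost an interval that excluded 0, and 3 changed direction where the main interval excluded 0. Unchanged shares stayed within their interval and unchanged counts within 1.5 times. Unchanged differences had an interval that excluded 0, or included it, as before. A difference whose interval included 0 could thus change sign and still count as unchanged. The causes of these changes were not tested beyond what each alternative changes by construction. When 50% of each peak had to be shared there were 1748 joining peaks (13.6% of new PU.1 peaks), and with centres within 100 bp there were 1374 (10.6%). In joining peaks the ETS word rose from 32.4% in the central 80 bp to 47.8% in 200 bp and 56.3% in the whole peak, the PU.1-type word to 13.4% and 14.6%, and the CEBP word to 35.4% and 47.3%, since wider windows hold more words; with centres within 100 bp the CEBP word was in 21.3%, and with either purine at the third base of the word in 22.0%. With GAGGAA, added after seeing the data, the ETS share was 36.5% and the difference from constitutive co-bound peaks turned from -9.15 to 4.89 points. The CEBP difference from constitutive co-bound peaks, -2.66 points, turned to 0.645 in 200 bp and 2.40 in whole peaks, both with intervals including 0, and was -1.18 (also including 0) with centres within 100 bp. Against CEBPA-gained peaks, intervals included 0 for the PU.1-type word in 200 bp (-2.31) and whole peaks (-2.37), for the ETS word in whole peaks (-2.47), and for the CEBP word with either purine (2.76). Of joining peaks 55.6% had CEBPA nearer in PuER when differences were 20 bp or more. Promoters held 19.3% of joining peaks with a limit of 2500 bp and 14.0% with the starts of all genes. Genes with a joining peak numbered 1406 within 20 kb and 1867 within 100 kb. No paired analysis was possible because there was 1 library per antibody and line and the labels number no replicates. Leaving out a replicate was likewise not possible.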

Other observations

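PU.1 peaks called in EV but not in PuER offer a reverse view of retained CEBPA peaks. At 965 such PU.1 peaks the median distance to the CEBPA centre of their own line, EV, was 39 bp (35 to 43). For joining peaks the distance within their own line, PuER, was 59 bp (56 to 63). To the CEBPA centre of the other line the medians were 42 bp (37 to 47) and 64 bp (59 to 67). The CEBPA centre was nearer to the EV PU.1 centre in PuER at 466 and farther at 466.

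The 280 new PU.1 peaks whose CEBPA call was lost held a CEBP word in 6.43% (3.85 to 9.97) of their central 80 bp, against 15.6% of joining peaks, a difference of 9.16 points (5.35 to 12.01). ETS words were in 36.4% (30.8 to 42.4) of them and 32.4% of joining peaks, with an interval of the difference that included 0. Their median distance to a start was 9325 bp (7585 to 11605), and that of joining peaks 14010 bp (12832 to 15337).

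No joining peak overlapped an exon of Spi1 or Esr1, the genes whose coding sequences make up PuER.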
